A study of Procambarus virginalis with 4 samples.

Results

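The 4 identifier prefixes that carry the most gene rows were examined in a table of gene body methylation from the marbled crayfish *Procambarus virginalis*. The prefix of a row is the text of its gene identifier before the first dot, and the number after the dot was used to order the rows of a prefix. WNGS01164437 held 452 rows, WNGS01164858 held 427, WNGS01169498 held 371 and WNGS01092210 held 311. Together these were 1561 of 13478 rows (11.6%), while the other 11917 rows were spread over 8111 prefixes. The choice used row counts only and no methylation value. The fourth prefix had 311 rows and the fifth, WNGS01163519, had 102, so the 4 stood well above the remainder.

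Whole-genome bisulfite sequencing (WGBS) had been performed on hemocytes, the circulating cells of the hemolymph, at 28 days after injection of double-stranded RNA (dsRNA). The 2 control animals were injected with dsRNA directed at GFP, which is a gene of a jellyfish and not of crayfish, and the 2 knockdown (KD) animals with dsRNA directed at *Dnmt1*. All 4 animals belong to a clonal, all-female species, so that they share their genotype. Each group held only 2 animals. The table pairs no identifier with a gene name or a position, so neither the hemocyte identity nor the knockdown itself could be checked in these values, and no sequence is shown. Hemocytes are a mixture of cell types, and a loss in every cell and a shift in the cell mixture cannot be told apart in such bulk samples.

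DNA methylation in animals is found mainly at CpG dinucleotides. After replication the new DNA strand lacks the mark, and Dnmt1, the maintenance methyltransferase, copies it from the old strand. In many invertebrates, methylation is concentrated in the bodies of a subset of genes, while other genes carry almost none. In WGBS, the share of reads that still show a cytosine gives the level of a site, and the values used here are averages over the CpGs of a gene in each animal. They are called levels and are given in percent. The table does not give the number of reads and CpGs behind each level, so no interval for counting error was computed.

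The 4 prefixes differed from the remainder of the table in the kind of rows they held. Most identifiers in the table close with a digit and the term covsplit, an ending whose meaning no source used here gives. This ending was carried by 234 rows (51.8%) of WNGS01164437, 197 (46.1%) of WNGS01164858, 215 (58.0%) of WNGS01169498 and 207 (66.6%) of WNGS01092210. Elsewhere it was carried by 91.4% of rows, so that the 4 prefixes held 708 of the 1734 rows without it (40.8%). Within a prefix the numbers were distinct for most rows, with 417, 406, 347 and 296 different numbers in the order given above. The numbers ran from 2133068 to 2188659 in WNGS01164437, from 2202327 to 2272359 in WNGS01164858, from 2636643 to 2691786 in WNGS01169498 and from 1242689 to 1282719 in WNGS01092210. No source used here says what the numbers count, so the distance along the DNA between rows is not known. The median step from a row to the next was 15, 39.5, 11 and 16, with the largest step at 10511, 17149, 12896 and 9629.

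Differences between animals with the same treatment give the measure for what follows. Across the rows of a prefix, which are not independent replicates, the Pearson's r between the controls lay between 0.939 in WNGS01164858 and 0.958 in WNGS01092210. Between the KD animals it lay between 0.842 in WNGS01164437 and 0.869 in WNGS01169498. The SD of the difference between the controls was 11.4, 12.0, 10.3 and 11.04 percentage points in the 4 prefixes, compared with 9.17 in the remainder of the table. Between the KD animals the SD was 12.6, 12.2, 10.4 and 12.6, compared with 9.17. A difference of 10 points in a row was thus smaller than the SD of the difference between single animals with the same treatment in each prefix. Averages of a group vary less than single animals, and the SD of a difference between group averages was not computed. In both groups the animal numbered 1 had the higher mean level in each prefix and in the remainder of the table. The library table of the study lists more reads and a lower mapping efficiency for both animals numbered 1. The part of depth and mapping in these gaps was not tested.

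In controls the levels of all 4 prefixes fell into a large low class and a broad high class. WNGS01164437 had 98 of 452 rows (21.7%) with a control average under 1%, 85 rows (18.8%) between 70% and 90%, and 40 rows (8.85%) at 90% or more. Its quartiles were 2.10%, 26.8% and 72.8%. WNGS01164858 had the fewest rows under 1%, with 76 (17.8%), and quartiles of 5.18%, 34.3% and 71.4%. WNGS01169498 leaned to the low side, with 99 rows (26.7%) under 1% and quartiles of 0.680%, 16.7% and 64.9%. WNGS01092210 was the most divided, with 81 rows (26.0%) under 1%, quartiles of 0.785%, 34.5% and 79.2%, and 33 rows (10.6%) at 90% or more. In the remainder of the table, 15.4% of rows were under 1%, 2.27% were at 90% or more, and the quartiles were 3.66%, 12.9% and 36.1%. Rows at 0 in all 4 animals made up 15.7%, 11.7%, 17.8% and 15.4% of the prefixes and 9.20% of the remainder.

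**Figure D1:**
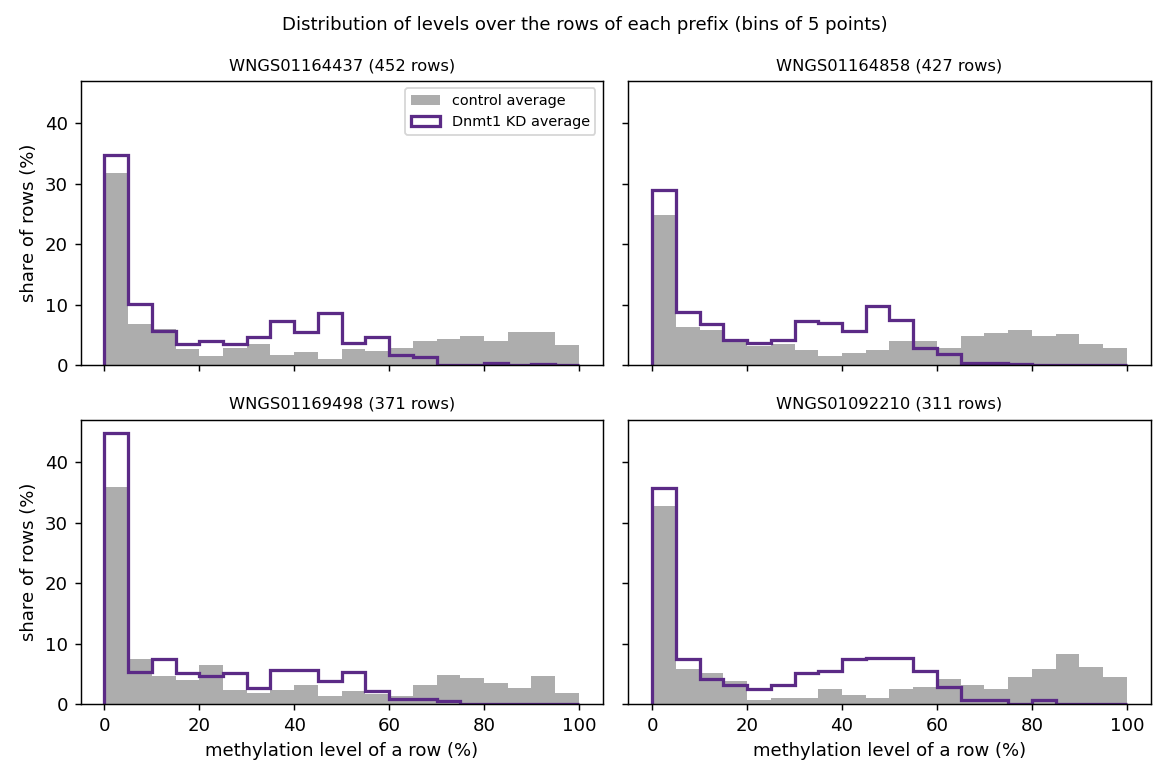
Distribution of levels over the rows of each prefix, with the level in percent on the x axis and the share of rows in percent on the y axis, in bins of 5 points. Grey bars are the average of the 2 controls and the purple outline the average of the 2 *Dnmt1* KD animals. The grey mass above 70% has almost no purple counterpart. Between 30% and 50% the purple outline holds more rows than the grey bars, while many KD rows lie near 0.

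The high class was nearly emptied in KD animals. Rows at 70% or more made up 28.5% and 23.2% of WNGS01164437 in controls 1 and 2, but 3.10% and 1.33% in KD 1 and KD 2. In WNGS01164858 they made up 29.98% and 23.7% in controls and 1.87% in each KD animal. In WNGS01169498 the shares were 22.9% and 19.1% in controls, and 0.809% and 1.08% in KD animals. Every KD animal thus lay far below both controls, and WNGS01092210 showed the same with 33.1% and 31.5% in controls and 2.25% and 2.57% in KD animals. Elsewhere the share fell from 10.3% ± 1.19 (SD, n = 2) to 0.927% ± 0.255 (SD, n = 2). Rows with an average between 30% and 50% became more frequent, from 39 to 118 in WNGS01164437, from 38 to 127 in WNGS01164858, from 33 to 66 in WNGS01169498 and from 19 to 80 in WNGS01092210.

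To ask how much methylation each prefix lost, its mean level over rows was computed in each animal. WNGS01164437 had 38.5% and 35.7% in the controls, compared with 22.9% and 21.3% in KD 1 and KD 2. Averaged by group this was 37.1% ± 1.93 and 22.1% ± 1.09 (SD, n = 2 each), and the level differed by -14.98 percentage points. WNGS01164858 had 41.6% and 38.0% in controls and 24.7% and 23.5% in KD animals. Its group means were 39.8% ± 2.55 and 24.1% ± 0.841 (SD, n = 2 each), and differed by -15.6 points. In both prefixes the difference exceeded the gap between the controls, which was 2.74 and 3.60 points.

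WNGS01169498, the least methylated of the 4, had 32.2% and 29.8% in controls and 18.0% and 17.4% in KD animals. Its group means were 31.0% ± 1.75 and 17.7% ± 0.445 (SD, n = 2 each), and differed by -13.3 points. WNGS01092210 had 41.0% and 39.3% in controls and 24.4% and 24.2% in KD animals. Its group means were 40.2% ± 1.18 and 24.3% ± 0.150 (SD, n = 2 each), and differed by -15.9 points. In the remainder of the table the mean went from 23.9% ± 1.93 to 14.5% ± 0.835 (SD, n = 2 each), which is -9.39 points. In each prefix the higher KD animal was below the lower control. A two-sided exact permutation test over animals gave p = 0.33 for each prefix (adjusted p = 0.33 over the 4), which is as low as this test can go with 2 animals in each group.

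**Figure D2:**
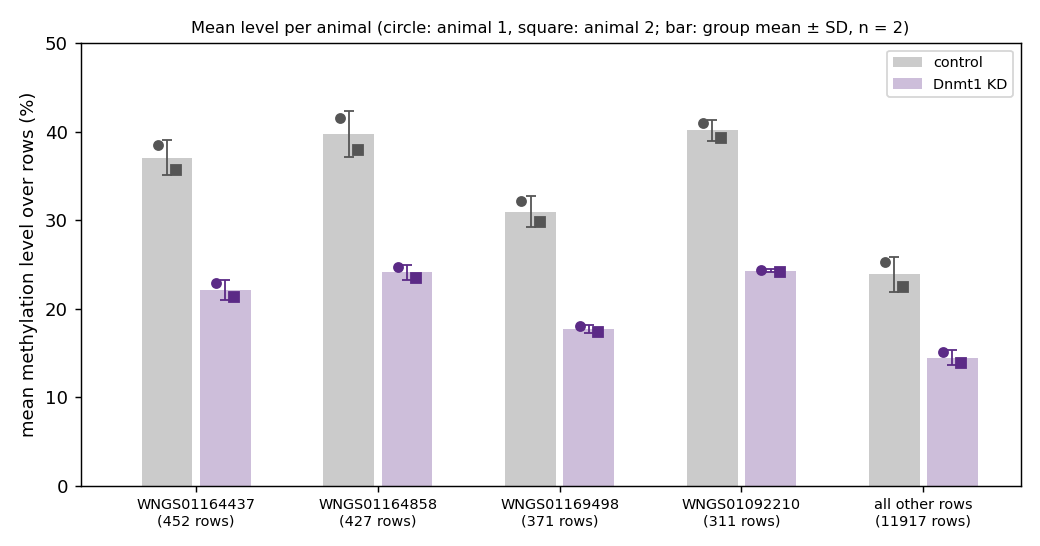
Mean methylation level over the rows of each prefix and over all other rows, in percent, per animal. Bars are group means with the SD of 2 animals (grey, control; purple, *Dnmt1* KD), circles are animal 1 and squares animal 2. In each prefix the KD animals lie between 17.4% and 24.7% and the controls between 29.8% and 41.6%.

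The share of rows that count as methylated changed far less than the level. With a row called methylated in an animal at 10% or more, WNGS01164437 had 61.7% and 59.96% of rows in controls and 55.8% and 54.4% in KD animals. WNGS01164858 had 69.8% and 66.0% in controls and 63.0% and 61.1% in KD animals. In both prefixes the shares of the KD animals lay a few points below those of the controls. WNGS01169498 had 58.0% and 55.3% in controls and 49.1% and 47.4% in KD animals. WNGS01092210 had 61.4% and 61.1% in controls and 56.3% in each KD animal. The differences were -5.75, -5.85, -8.36 and -4.98 percentage points, larger than the gaps between controls of 1.77, 3.75, 2.70 and 0.322 points. Each gave p = 0.33 in the exact permutation test (adjusted p = 0.33), and the difference in the remainder of the table was -12.7 points.

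Methylated rows are defined from here on by a mean over all 4 animals of at least 10%, so that both groups enter alike. There were 264 in WNGS01164437 (58.4%), 282 in WNGS01164858 (66.0%), 197 in WNGS01169498 (53.1%) and 186 in WNGS01092210 (59.8%). Over the whole table the share was 52.1%, so WNGS01169498 was close to it and WNGS01164858 furthest above. The methylated rows of the 4 prefixes were also more methylated than those elsewhere. Their control mean was 61.5% ± 2.90, 58.6% ± 3.55, 56.0% ± 3.02 and 65.7% ± 1.83 in the 4 prefixes, compared with 42.5% ± 2.99 in the remainder (SD, n = 2 each). Among rows below the 10% line the prefixes instead lay below the remainder. Control means were 2.85%, 3.09%, 2.73% and 2.20% in the prefixes and 4.38% in the remainder.

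Set against all other rows, the mean level was higher in every prefix and every animal. The ratio of the prefix mean to the mean of all other rows was between 1.52 and 1.59 in the 4 animals for WNGS01164437. It was between 1.64 and 1.69 for WNGS01164858, between 1.19 and 1.32 for WNGS01169498 and between 1.62 and 1.75 for WNGS01092210. An exact two-sided sign-flip test over the 4 animals gave p = 0.13 for each (adjusted p = 0.13), the smallest value it can give. WNGS01169498 was the lowest of the 4 prefixes in all 4 animals, by 3.96 to 6.23 percentage points below WNGS01164437. WNGS01164437 in turn lay below WNGS01164858 by 1.83 to 3.09 points and below WNGS01092210 by 1.51 to 3.61 points. WNGS01164858 and WNGS01092210 could not be ordered, since the former was higher in 2 animals and lower in 2 (exact sign-flip test, p = 0.625, adjusted p = 0.625). The other 5 of the 6 pairs gave the smallest exact p of 0.13 (adjusted p = 0.15).

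The excess over other rows lay largely in the rows with the covsplit ending. In WNGS01164437 the covsplit rows had a control mean of 49.1% ± 2.32 and the other rows 24.2% ± 1.52 (SD, n = 2 each). In WNGS01164858 the values were 49.2% ± 2.42 and 31.7% ± 2.66, in WNGS01169498 39.9% ± 2.33 and 18.7% ± 0.947, and in WNGS01092210 48.5% ± 1.61 and 23.7% ± 0.317. In the remainder of the table both kinds were alike, with 24.0% ± 1.93 and 22.1% ± 1.91. The ratio of covsplit rows to other rows was 2.01, 2.06, 1.86 and 1.96 in the 4 animals for WNGS01164437, and 1.07 to 1.10 in the remainder of the table. Among covsplit rows alone, the ratio of the prefix to all other prefixes averaged 2.01, 2.03, 1.62 and 2.01. Among rows without the ending it averaged 1.11, 1.45, 0.810 and 1.07, so WNGS01169498 then lay below the remainder, with 0.828, 0.871, 0.742 and 0.805 in the 4 animals. This split by row kind was added after the values were seen.

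Rows that carry a recurring value were also more frequent in the prefixes. A recurring value is a level other than 0 that is written identically in at least 5 rows of an animal, such as 50%. Such rows made up 27.7%, 29.0%, 26.4% and 32.8% of the 4 prefixes and 21.1% of the remainder. Without them the log2 ratio of the prefix to other rows went from 0.62 to 0.48 in WNGS01164437, from 0.74 to 0.69 in WNGS01164858, from 0.33 to 0.12 in WNGS01169498 and from 0.75 to 0.43 in WNGS01092210. All 4 ratios stayed above 0 on the log2 scale.

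The retained share of the 4 prefixes lay within a few percentage points. The retained share, which is the KD mean over methylated rows as a percentage of the control mean, was 59.2% ± 2.86 in WNGS01164437 and 60.5% ± 1.92 in WNGS01164858 (SD between the KD animals, n = 2 each). It was 57.6% ± 1.42 in WNGS01169498 and 60.4% ± 0.166 in WNGS01092210, compared with 60.6% ± 3.60 in the remainder of the table. The larger loss in percentage points thus went with a higher starting level. The ratio of the prefix mean to other rows changed between groups by -0.027, 0.00022, -0.088 and -0.0056 on the log2 scale. The exact permutation test of this change gave p = 0.667, 1, 0.33 and 0.667 (adjusted p = 0.889, 1, 0.889 and 0.889), where 0.33 is the smallest p it can give, so this test could not have passed for any prefix. In WNGS01169498 the ratios were 1.28 and 1.32 in controls and 1.19 and 1.25 in KD animals and did not overlap, and the change was negative under every alternative run, from -0.055 to -0.14.

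Among methylated rows, the retained share was also similar across levels in 3 of the 4 prefixes. In WNGS01164437, 67 rows with a 4-animal mean of 10% to 30% retained 59.9%, 50 rows of 30% to 50% retained 59.7%, and 147 rows of 50% or more retained 59.0%. The corresponding values were 59.96%, 59.4% and 60.9% in WNGS01164858, and 59.0%, 56.9% and 57.5% in WNGS01169498. WNGS01092210 ranged more widely, with 66.7% over 37 rows, 62.2% over 33 rows and 59.5% over 116 rows. Rows with a mean under 10%, which had control means of 2.20% to 3.09%, retained 72.4%, 67.9%, 45.6% and 66.0% in the 4 prefixes and 61.7% elsewhere. For the uppermost class the loss meant a fall from 83.2% ± 1.299 to 49.5% ± 0.126 (SD, n = 2 each) in WNGS01092210. Row by row, the median retained share was 59.1%, 61.1%, 57.9% and 59.3%, and the middle 50% of rows lay between 50.4% and 67.8%. Rows that retained over 100% numbered 7 (2.66%), 10 (3.55%), 4 (2.03%) and 9 (4.86%), compared with 4.58% over the whole table. Rows that retained under 25% numbered 5 (1.90%), 6 (2.13%), 3 (1.52%) and 1 (0.541%), compared with 2.12%.

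By the rule of the study, a row was called lower when its KD average lay more than 10 percentage points below its control average. This applied to 219 rows of WNGS01164437 (48.5%), 234 of WNGS01164858 (54.8%), 162 of WNGS01169498 (43.7%) and 153 of WNGS01092210 (49.2%), compared with 35.9% over the whole table. A row needs a control level above 10% to fall that far, so that prefixes with higher levels have more rows that can pass. Among methylated rows alone, the shares were 82.6%, 82.3%, 79.7% and 82.3%, compared with 67.3% over the whole table. The methylated rows of the prefixes also had higher control means, as given above, so this comparison is not one at equal starting level. When the groups were only required not to overlap, the shares were nearer the background. The higher KD animal was below the lower control in 257 rows (56.9%), 265 (62.1%), 212 (57.1%) and 180 (57.9%), compared with 56.2%.

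A test of each row with limma, fitted over the 12147 rows with some spread, called 0 rows of any prefix at an adjusted p-value under 0.05 in either direction, as it did over the whole table (0%). It tested 381, 377, 305 and 263 rows of the 4 prefixes. At an unadjusted p-value under 0.05, 177 (46.5%), 177 (46.9%), 129 (42.3%) and 124 rows (47.1%) were lower, compared with 32.2% over the whole table. Control levels were higher in the prefixes, so this comparison is not one at equal starting level either. Higher rows numbered 1 (0.262%), 3 (0.796%), 0 and 1 (0.380%) at that threshold, compared with 0.469%. The smallest adjusted p-value was 0.0793. The count depended on the settings. Without the trend of the spread on the level, limma called 85 (22.3%), 66 (17.5%), 60 (19.7%) and 63 rows (24.0%), compared with 10.4% over the whole table. With rows of recurring values left out, it called 87 (34.0%), 78 (30.8%), 51 (24.6%) and 53 rows (32.9%), compared with 16.6%.

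The largest falls among rows without a recurring value began at high control levels and ended between 24.4% and 47.0% in the KD animals. WNGS01092210.1247600_2_covsplit had 89.8% and 89.6% in controls and 33.1% and 32.7% in KD animals, and its average moved by -56.8 percentage points (limma SE 5.09, adjusted p = 0.0793). It retained 36.7% of its level, well under the 60.4% of its prefix. WNGS01164437.2133157_0_covsplit had 97.6% and 79.7% in controls and 39.6% and 33.8% in KD animals, and its average moved by -51.98 points (limma SE 8.22, adjusted p = 0.0793). WNGS01092210.1251934_0_covsplit had 85.3% and 91.8% in controls and 40.8% and 33.6% in KD animals, and its average moved by -51.4 points (limma SE 6.13, adjusted p = 0.0793). Only rows without overlap between groups were eligible to be named here, and none of these rows passed the adjusted threshold.

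The second fall of WNGS01164437 was in WNGS01164437.2133744_3_covsplit, with 91.1% and 64.8% in controls and 30.6% and 24.4% in KD animals. In WNGS01164858 the largest were WNGS01164858.2225441_0_covsplit, from 91.5% and 92.4% to 41.7% and 47.0%, and WNGS01164858.2224392_0_covsplit, from 93.1% and 90.6% to 46.6% and 43.4%. In these last rows the groups differed far more than the animals of a group did. In WNGS01169498 the largest were WNGS01169498.2636774_2_covsplit, from 78.9% and 79.4% to 36.1% and 26.0%, and WNGS01169498.2660637, from 86.7% and 89.0% to 37.0% and 43.8%. The last of these was the only one of the 8 named falls that lacked the covsplit ending.

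Rises were rare. The KD average lay more than 10 points above the control average in 6 rows of WNGS01164437 (1.33%) and 5 of WNGS01164858 (1.17%). The same held for 1 row of WNGS01169498 (0.270%) and 3 of WNGS01092210 (0.965%). Over the whole table the share was 0.564%, and WNGS01164437, WNGS01164858 and WNGS01092210 lay above it. Of the 15 rows in the prefixes, 12 carried a recurring value. The lower KD animal was above the higher control in 4 (0.885%), 9 (2.11%), 2 (0.539%) and 5 rows (1.61%), compared with 1.65%. Without recurring values, 2 rows met both conditions, both in WNGS01164858. The larger rise of these was in WNGS01164858.2234334, with 18.0% and 5.71% in controls and 34.8% and 24.7% in KD animals, where the average moved by 17.9 percentage points (limma SE 6.62, adjusted p = 0.153). Lack of overlap was a condition of the choice, and each group had a gap of about 10 points or more between its animals.

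Among rows with a control average of 30% or more, the row with the highest retained share was picked in each prefix. A choice on the share itself cannot show that a row kept its methylation. WNGS01092210.1249063_0_covsplit had 37.1% and 37.9% in controls and 43.3% and 37.0% in KD animals, so the groups overlapped and it retained 107.2%. WNGS01169498.2636717_0_covsplit had 47.1% and 29.7% in controls and 36.3% and 39.2% in KD animals, and WNGS01164858.2202906_0_covsplit had 38.3% and 30.4% in controls and 48.5% and 18.3% in KD animals. In both, the animals of a group differed more than the groups did. In WNGS01164437 the highest retained share by the same rule was 82.2%, in WNGS01164437.2133169_0_covsplit, with 71.9% and 71.7% in controls and 55.5% and 62.5% in KD animals.

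To see how levels were arranged within a prefix, rows were ordered by the number after the dot and divided into an early, a middle and a late part of nearly equal row counts. In 3 of the 4 prefixes the late part was poorly methylated. In WNGS01164437 the control mean was 47.2% ± 2.15 in the early part and 40.96% ± 1.88 in the middle. It was 23.0% ± 1.77 in the late part (SD, n = 2 each). In WNGS01169498 it was 37.6% ± 1.40, 38.9% ± 2.76 and 16.4% ± 1.08, and in WNGS01092210 it was 49.4% ± 1.25, 47.5% ± 2.30 and 23.4% ± 0.0311. WNGS01164858 was even along its order, with 41.7% ± 2.38, 39.2% ± 1.43 and 38.3% ± 3.84. The covsplit ending followed the same division. It was carried by 81.5%, 72.8% and 0.667% of the rows of these parts in WNGS01164437, by 95.2%, 70.2% and 8.13% in WNGS01169498 and by 95.2%, 95.2% and 8.74% in WNGS01092210. In WNGS01164858 the shares were 65.0%, 35.9% and 37.3%. The part of row kind in the difference between early and late rows was not tested.

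The retained share showed no common course along this order. Over the methylated rows of the early, middle and late parts it was 58.7%, 57.7% and 63.3% in WNGS01164437, highest in the late part. In WNGS01164858 it was highest in the early part, with 63.3%, 59.1% and 58.9%. It was nearly even in WNGS01169498, with 57.3%, 57.8% and 57.6%, and in WNGS01092210, with 60.5%, 60.2% and 60.5%. In each of these parts of each prefix the higher KD mean was below the lower control mean.

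**Figure D3:**
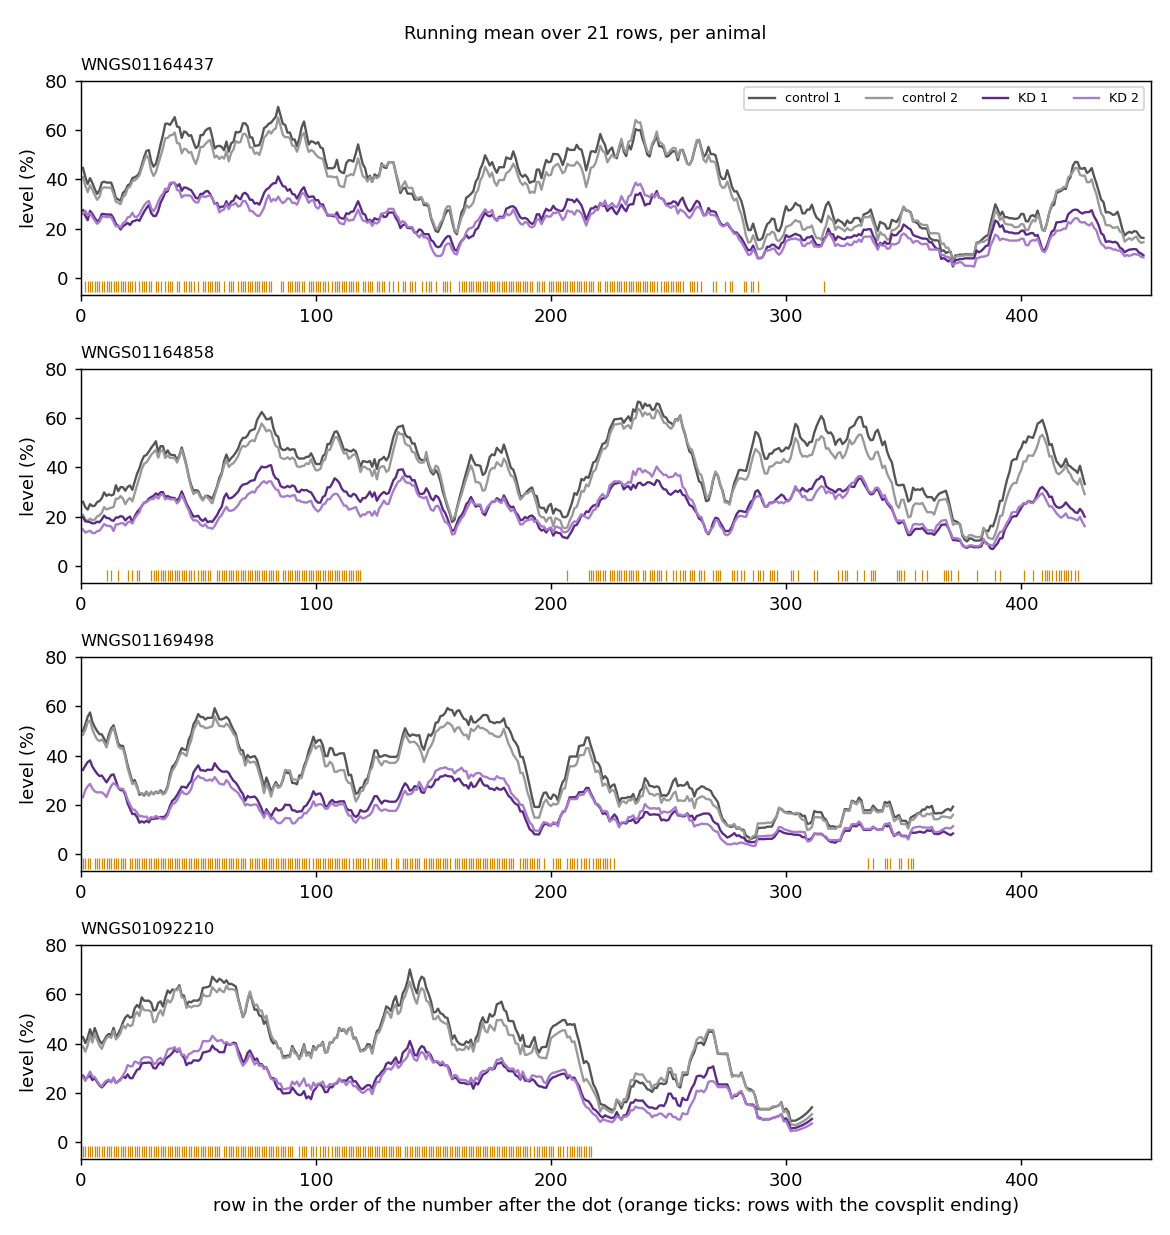
Running mean of the level over 21 consecutive rows, in percent, along the order of rows in each prefix. Each line is 1 animal (greys, controls; purples, *Dnmt1* KD) and orange ticks mark rows with the covsplit ending. The lines of the 4 animals rise and fall together, and the KD lines nearly meet the control lines in stretches of low level.

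In consecutive blocks of 30 rows the control mean spanned a wide range within each prefix. It went from 7.13% to 59.5% over 15 blocks in WNGS01164437, from 14.1% to 55.5% over 14 blocks in WNGS01164858, from 12.1% to 54.6% over 12 blocks in WNGS01169498 and from 14.7% to 58.1% over 10 blocks in WNGS01092210. The lowest block of WNGS01164437 lay at numbers 2168251 to 2171061, where 3 of 30 rows were methylated. Its animals had 7.11% and 7.14% in controls and 5.81% and 4.49% in KD. The highest lay at numbers 2133177 to 2133222, with 61.2% and 57.9% in controls and 34.5% and 32.0% in KD. Both KD animals were below both controls in all 15, 14, 12 and 10 full blocks. The retained share of the methylated rows of a block lay between 50.9% and 73.1% over these blocks, of which the poorest held 3 methylated rows. Across blocks, the control mean went with the share of covsplit rows, with a Pearson's r of 0.78, 0.54, 0.86 and 0.82 over the 15, 14, 12 and 10 blocks, which share their libraries.

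**Figure D4:**
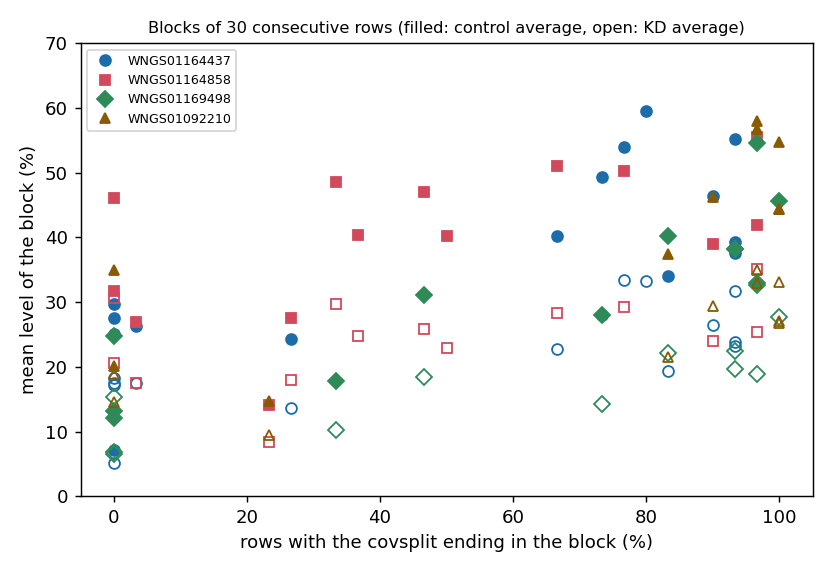
Mean level of each block of 30 consecutive rows in percent (y axis) against the share of its rows with the covsplit ending in percent (x axis). Filled symbols are the average of the 2 controls and open symbols the average of the 2 KD animals, with a symbol shape for each prefix. Blocks with few covsplit rows were mostly low, except in WNGS01164858, where a block without any reached 46.1% in controls.

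Methylated rows formed runs, most of them short. The longest run in which every row was methylated had 12 rows in WNGS01164437, 25 in WNGS01164858, 15 in WNGS01169498 and 19 in WNGS01092210. That of WNGS01164858 ran from WNGS01164858.2205167_1_covsplit, with 75.4% and 85.3% in controls and 41.6% and 37.0% in KD animals, to WNGS01164858.2208681_0_covsplit, with 58.3% and 38.7% in controls and 35.1% and 19.3% in KD animals. Its row averages reached from 12.4% to 91.1% in controls, so a run joined moderate with very high rows. Over its 25 rows the mean was 61.9% and 57.3% in controls and 40.5% and 34.5% in KD animals, and 22 of the 25 were lower by more than 10 points. Single rows made up 35 of the 86 methylated runs in WNGS01164437, 18 of 70 in WNGS01164858, 28 of 66 in WNGS01169498 and 22 of 55 in WNGS01092210.

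In the other 3 prefixes the longest methylated runs showed the same loss. The run of WNGS01164437, from WNGS01164437.2135657_0_covsplit to WNGS01164437.2136648_0_covsplit, had a mean of 67.9% and 59.7% in controls and 36.5% and 37.1% in KD animals. That of WNGS01169498, from WNGS01169498.2636710_0_covsplit to WNGS01169498.2636725_0_covsplit, had 61.5% and 57.2% in controls and 38.9% and 33.8% in KD animals. That of WNGS01092210, from WNGS01092210.1242717_0_covsplit to WNGS01092210.1242748_0_covsplit, had 63.5% and 59.2% in controls and 35.6% and 38.1% in KD animals. In each of the 3, all rows carried the covsplit ending.

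The longest runs of rows under 10% had 18, 11, 13 and 12 rows. The run of WNGS01164437, from WNGS01164437.2168251 to WNGS01164437.2169435, had a mean of 2.16% and 2.25% in controls and 2.25% and 3.14% in KD animals, with 8 of its 18 rows at 0 in every animal. In WNGS01164858 the run from WNGS01164858.2234698 to WNGS01164858.2235129 had 3.12% and 2.67% in controls and 1.18% and 1.95% in KD animals. The run of WNGS01169498, from WNGS01169498.2646246_0_covsplit to WNGS01169498.2647606, was the emptiest, with means of 0.245% and 0.0437% in controls and 0.0640% and 0.0651% in KD animals. It lay inside the better methylated part of its prefix, and 8 of its 13 rows carried the covsplit ending. That of WNGS01092210, from WNGS01092210.1270916 to WNGS01092210.1271780, had 1.16% and 1.27% in controls and 0.532% and 0.461% in KD animals.

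Neighbouring rows resembled each other moderately in level, and the likeness faded within a few rows. For adjacent rows the Pearson's r of the control average was 0.34 over 451 pairs in WNGS01164437, 0.37 over 426 in WNGS01164858, 0.33 over 370 in WNGS01169498 and 0.26 over 310 in WNGS01092210. Spearman's rho was 0.34, 0.36, 0.34 and 0.25. At 2 rows apart r was 0.11, 0.20, 0.18 and 0.21, and at 50 rows apart it was 0.048, -0.099, 0.14 and 0.0089. These are descriptions across rows that share their libraries and, in part, their row kind, and they carry no p-value. In the remainder of the table, adjacent rows of the same prefix had an r of 0.48 over 3806 pairs. These pairs were pooled over many prefixes. Differences in level between prefixes therefore enter this r, but not the r of a single prefix.

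Some adjacent rows share a number and differ only in the ending, which concerned 35, 21, 24 and 15 pairs. Without these pairs r was 0.33, 0.36, 0.31 and 0.27, so the likeness held without them. By the step in number, the likeness was lowest for the largest steps. Over the 4 prefixes together, r was 0.35 over 365 pairs with numbers 1 to 2 apart, 0.42 over 316 pairs 3 to 20 apart, 0.32 over 421 pairs 21 to 100 apart and 0.18 over 360 pairs further apart. For these last pairs it was 0.22, 0.21, 0.14 and 0.063 in the single prefixes. Among covsplit rows alone r was 0.18, 0.23, 0.27 and 0.14. Among rows without the ending it was 0.22, 0.31, -0.064 and 0.20, so in WNGS01169498 it was not seen among the latter.

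As a class, a row was more often methylated when the row before it was. In WNGS01164437, 67.4% of rows after a methylated row were methylated, compared with 46.0% after a row under 10%. The shares were 75.4% and 47.6% in WNGS01164858, 66.5% and 38.2% in WNGS01169498, and 70.8% and 44.0% in WNGS01092210. Adjacent rows fell in the same class in 61.9%, 67.6%, 64.3% and 64.8% of pairs, compared with 53.5%, 50.7%, 52.6% and 52.5% of pairs 50 rows apart. The likeness was seen in every animal, with an r for adjacent rows between 0.23 and 0.37 in the controls and between 0.20 and 0.34 in the KD animals.

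The relative loss showed little likeness between neighbours. How far the retained share of a row repeats between the KD animals was not computed. Low values therefore do not show that relative loss lacks local structure. For adjacent pairs of methylated rows, the r of the retained share was -0.046 over 177 pairs in WNGS01164437, 0.028 over 212 in WNGS01164858, 0.17 over 131 in WNGS01169498 and -0.081 over 129 in WNGS01092210. In WNGS01169498 it was 0.24 in KD 1 and 0.12 in KD 2, while Spearman's rho was 0.095. In the same prefix r was -0.076, -0.018, -0.16, 0.26 and 0.035 at 2, 5, 10, 20 and 50 rows apart, with a rho of -0.026 at 20 rows, so it followed no steady course with distance. Over all adjacent pairs, methylated or not, the loss in percentage points had an r of 0.31, 0.30, 0.28 and 0.17. Each was below the r of the control level over the same pairs. Among adjacent pairs of methylated rows, the r of the control level was 0.16, 0.27, 0.22 and 0.16.

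**Figure D5:**
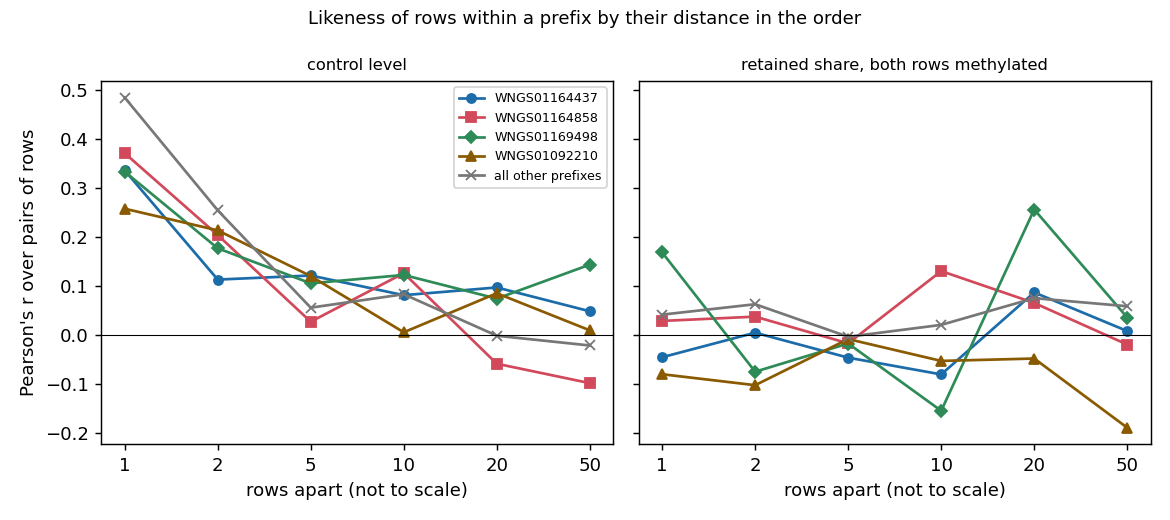
Pearson's r over pairs of rows of the same prefix (y axis) by the number of rows between them in the order (x axis, not to scale), for the control level on the left and the retained share of methylated rows on the right. Coloured symbols are the 4 prefixes and grey crosses all other prefixes. Pairs of all other prefixes were pooled, so differences between prefixes enter their r. The r of the control level falls from between 0.26 and 0.37 at 1 row apart to between -0.099 and 0.14 at 50 rows, while the r of the retained share scatters around 0.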

How the data were processed

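Reads of WGBS libraries from 4 animals had been trimmed with Trim Galore, aligned with Bismark on Bowtie2 and freed of duplicates by the authors, who dropped cytosines under 10X combined coverage and kept genes with at least 10 CpGs. bedtools (v2.24.0) is named in the processing notes of the submitters. No source used here names the genome build. What the authors deposited is 1 table with the average methylation fraction of each gene in each animal (0 to 1, no missing value), printed here as percent. It holds neither coverage nor CpG counts per gene. The depth that the study lists for each library entered no computation, and precision was judged from the spread between animals only.

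Samples were grouped by their labels, with the animal as the replicate. The labels do not say whether the animals of a group were handled separately, so p-values measure only the spread between these samples. Prefix, number and the covsplit ending were read from the identifiers, and rows were ordered by number and then by the number in the ending. Levels of a prefix were compared with exact permutation and sign-flip tests over animals, written in Python (v3.11.15) with numpy (v2.4.6). Their p-values were adjusted over the prefixes or pairs by Benjamini-Hochberg. No rank test over genes was run, although the methods of the study use one, because genes are not replicates. limma (v3.58.1, R v4.3.3) with a trended prior was run on all rows except 1331 at 0 in every animal, with 2.34 prior and 2 residual degrees of freedom. This fit and the neighbour correlation were tested on simulated data.

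Named rows were, per prefix and without recurring values, the 2 largest falls and the largest rise past 10 points with no overlap between groups, and the highest retained share at a control average of 30% or more. The ends of the longest runs, from all rows, were also named. The members, lists and tests were chosen with earlier results of these data known. Alternatives were other cut-offs and filters, rows of recurring or identical values left out, each animal left out in turn, a replicate block and a split by row kind.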

Additional observations from a re-analysis of the deposited data

How the results depend on the processing

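Values are given in the order WNGS01164437, WNGS01164858, WNGS01169498 and WNGS01092210. With 2 animals a group, no test over animals could pass 0.05, and the table gives no coverage or CpG number per row, so that rows resting on few reads could not be set apart. The difference in mean level and in the share of rows at 10% or more kept its sign under every alternative run. The mean difference lay between -16.3 and -13.6, -17.4 and -13.8, -14.5 and -12.1, and -16.7 and -15.0 points when an animal was left out. Splits by row kind were chosen after seeing the data, and the cause of the changes below was not tested.

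The log2 ratio of WNGS01169498 to other rows turned from 0.33 to -0.30 among rows without the covsplit ending. The change of the ratio between groups, which was close to 0, turned to 0.027 in WNGS01164437 among rows without that ending. In WNGS01164858 it turned to -0.024 among covsplit rows and to -0.0011 among rows with a mean of at least 5%. With an animal left out it ranged from -0.056 to 0.0028, -0.023 to 0.023, -0.12 to -0.055 and -0.058 to 0.047.

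The retained share ranged from 57.3% to 61.3%, 58.0% to 63.0%, 55.5% to 59.8% and 59.2% to 61.5% with an animal left out. With rows chosen on control 1 and the loss taken from control 2 it was 61.3%, 63.3%, 59.97% and 61.3%. With the controls exchanged it was 57.2%, 58.6%, 55.2% and 58.8%. In WNGS01092210 it was 59.9% at a cut-off of 20% and 60.7% among rows without the covsplit ending.

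Without rows of recurring values the count of lower rows was 145, 156, 99 and 84, and in WNGS01169498 it was 106 at a cut-off of 20 points. The count of higher rows was 1, 2, 0 and 0 without recurring values, 8, 9, 4 and 6 at a cut-off of 5 points, 1, 1, 0 and 2 at 20 points, and 1, 3, 0 and 2 when both KD animals had to lie above both controls. With an animal left out it ranged from 4 to 9, 5 to 7, 0 to 3 and 4 to 7. In WNGS01169498 it was 3 without control 1, 0 without control 2 and 2 without KD 1, and in WNGS01092210 it was 6 without control 1, 5 without control 2 and 7 without KD 2. limma called 85, 66, 60 and 63 rows without the trend and 87, 78, 51 and 53 without recurring values, and 0 under the other settings.

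With the replicate number as a block, where a row had to change by over 10 points in both pairs, lower rows numbered 181, 189, 127 and 130 and higher rows 1, 2, 0 and 2. The block left the mean differences at -14.98, -15.6, -13.3 and -15.9 points and changed no other call. Row by row, the deviations from the group means of animals with the same number had an r of 0.0020 over all rows. In the prefixes this r was 0.18, -0.12, -0.12 and -0.096. In their means the animals numbered 1 were the higher in both groups. The labels do not tie the numbers to a shared batch, and the numbers were not used as pairs. In the library table of the study, reads and mapping efficiency were closer between animals with the same number than within a group.

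The r of the control level between adjacent rows was 0.32, 0.32, 0.26 and 0.20 without recurring values, 0.28, 0.34, 0.28 and 0.25 with rows of identical values counted once, and 0.33, 0.36, 0.31 and 0.27 without pairs of the same number. It was 0.40, 0.48, 0.38 and 0.26 for steps up to the median step, 0.18, 0.23, 0.27 and 0.14 among covsplit rows, and 0.22, 0.31, -0.064 and 0.20 among rows without that ending. At 2 rows apart it was 0.11, 0.20, 0.18 and 0.21, and at 5 rows apart 0.12, 0.027, 0.11 and 0.12, with a Spearman's rho of 0.34, 0.36, 0.34 and 0.25 for adjacent rows. With a control left out it ranged from 0.32 to 0.34, 0.35 to 0.37, 0.31 to 0.34 and 0.23 to 0.27.

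The r of the retained share changed sign between settings in 3 prefixes. It was 0.036, 0.074, 0.21 and 0.16 without recurring values, -0.053, 0.053, 0.18 and -0.067 with identical rows once, and -0.12, -0.0021, 0.14 and -0.033 at a cut-off of 20%. Spearman's rho was -0.078, -0.028, 0.095 and -0.066, and r in WNGS01164858 was 0.086 without pairs of the same number. With an animal left out it ranged from -0.097 to 0.094, -0.060 to 0.10, 0.017 to 0.25 and -0.062 to 0.039.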
